A study of Mus musculus with 10 samples.

Results

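The genes described here are the segments from which T cell receptor alpha and beta chains are built: every gene of the GENCODE M21 annotation whose symbol starts with Trav, Trbv, Trac, Trbc, Traj, Trbj or Trbd. They number 242, of which the deposited tables list 229 among 54408 genes in all. The 242 are 128 Trav, 35 Trbv, 1 Trac, 2 Trbc, 60 Traj, 14 Trbj and 2 Trbd genes. The alpha genes (189) lie on chromosome 14 and the beta genes (53) on chromosome 6, and 43 of the 242 are annotated as pseudogenes. RNA was sequenced from CD8 T cells sorted out of tumours of B16-gp33, a mouse melanoma line that expresses the gp33 peptide. The transferred cells were P14 cells, which carry a transgenic T cell receptor against gp33 and were of C57BL/6 strain. All of them had floxed Nfat5 alleles. In the 5 libraries labelled WT they had no Cre recombinase, and in the 5 labelled NFAT5 KO they had 1 Cre transgene under the Cd4 promoter, which acts on both CD4 and CD8 lineages because thymocytes pass through a stage that expresses Cd4. In both groups the cells were activated in culture for 48 h, 5000000 were transferred per the labels, and the tumours were taken 7 days later. The labels name the sorted cells only as CD8 cells and give no marker that would separate transferred P14 cells from CD8 cells of the host, so the libraries may hold both. They do not give the age or sex of the animals or the floxed exon.

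T cell receptor chains are assembled in the developing thymocyte by joining 1 V segment to a J segment (with a D segment between them in the beta chain), after which the joined exon is spliced to a constant region. Alpha chains all use Trac, and beta chains use Trbc1 or Trbc2, which encode nearly the same protein. In an ordinary T cell population many V segments are in use, each in a small share of the cells. Cells with the P14 receptor use an alpha segment of the Trav14 family (Valpha2) and the beta segment Trbv13-3 (Vbeta8.1). Other T cells can use these segments too, so their share of V reads is a guide to P14 message and not a measure of it. Chains encoded by the receptor genes reach the cell surface with the CD3 chains.

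Trav14-1, the copy with nearly all reads of its family, and Trbv13-3 are called the P14 V segments here. They have close relatives in the same families, and a read can be given to 1 copy only where the copies differ. The stretches below are 120 bases of the V exon, which encodes the variable domain, on the plus strand of GRCm38: chr14:53554322-53554441 in Trav14-1 and chr6:41130447-41130566 in Trbv13-3. They are shown because they hold the bases that separate the P14 segments from their relatives. In Trav14-1 and Trbv13-3, capitals mark the bases that no other copy of the family has at that place (7 and 11 bases). In the relatives, capitals mark the bases that differ from the P14 segment.
Trav14-1: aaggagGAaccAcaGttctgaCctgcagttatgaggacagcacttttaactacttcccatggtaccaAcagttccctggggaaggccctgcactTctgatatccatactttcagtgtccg
Trav14d-1: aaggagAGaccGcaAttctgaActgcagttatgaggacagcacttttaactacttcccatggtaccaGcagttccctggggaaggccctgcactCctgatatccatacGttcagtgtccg
Trav14-2: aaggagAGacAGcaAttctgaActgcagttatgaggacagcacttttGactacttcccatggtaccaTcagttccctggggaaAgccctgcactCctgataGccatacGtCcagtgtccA
Trbv13-3: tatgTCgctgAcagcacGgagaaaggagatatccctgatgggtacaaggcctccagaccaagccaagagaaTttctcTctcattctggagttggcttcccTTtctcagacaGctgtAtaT
Trbv13-2: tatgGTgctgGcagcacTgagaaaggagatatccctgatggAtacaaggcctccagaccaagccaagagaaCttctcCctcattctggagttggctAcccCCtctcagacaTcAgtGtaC
Trbv13-1: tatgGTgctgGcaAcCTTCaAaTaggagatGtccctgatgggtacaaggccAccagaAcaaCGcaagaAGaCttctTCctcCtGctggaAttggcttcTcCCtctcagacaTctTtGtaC

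Over the V exon, the other 8 Trav14 copies were 92.6% to 95.8% identical to Trav14-1. Trav14d-1, the closest together with Trav14n-1, differed from it at 8 of the 120 bases shown, and Trav14-2 differed at 14. Trbv13-2 was 91.8% and Trbv13-1 86.1% identical to Trbv13-3, with 14 and 30 differences in the stretch shown. Of the 369 distinct 31-base words in Trav14-1 transcripts, 249 (67.5%) occurred in no other gene, and of the 310 in Trbv13-3, 275 (88.7%) occurred in no other gene. None of 140 V genes outside the Trav14 family shared a 31-base word with Trav14-1, and 2 shared words with Trbv13-3, its relatives Trbv13-1 (5 words) and Trbv13-2 (31 words). Trbc1 is harder to tell from Trbc2, since 321 of its 717 words are also in Trbc2. The duplicated alpha locus of C57BL/6 leaves still closer pairs, and all 25 segment transcripts that the tables do not list were identical to a listed one. For that reason 13 Trav genes have no listed transcript.

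The libraries held 22444310 to 32001285 estimated counts. Of all genes, 13081 genes passed the filter on low counts, and of these 3.38% were called higher and 5.63% lower in NFAT5 KO at an adjusted p below 0.05. Levels are given as CPM, the estimated counts scaled to a common library total after TMM library factors, and a log2 fold change is always NFAT5 KO over WT. The summed level of 7 CD8 T cell markers was 6425 to 7239 CPM in WT and 6714 to 7063 CPM in NFAT5 KO, and Cd8a alone was at 1372 to 1581 and 1380 to 1508 CPM, so the sorted cells expressed the genes of their label in both groups. The sum over all Nfat5 transcripts was 9.2 to 18.3 CPM (median 17.2) in WT and 11.6 to 26.7 CPM (median 12.2) in NFAT5 KO, with a log2 fold change of -0.04 (SE 0.27, edgeR adjusted p = 0.957). The floxed exon is not named in the labels, and a sum over the whole gene does not check the genotype.

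Reads fell on 119 of the 229 segment genes that the tables list. These were 91 of 115 listed Trav genes, 25 of 35 Trbv genes and all 3 constant regions, and 22 of them had a mean of at least 1 CPM over the 10 libraries. No read was listed for any of the 76 J and D segments. They are 12 to 72 bases long, none of the 912 listed transcripts of any gene of up to 72 bases had a read, and the shortest transcript with reads was 98 bases long, so a 0 here carries no information on which J or D segments were used. The filter on low counts kept 36 members: 18 Trav genes, 15 Trbv genes and the 3 constant regions. A member that is high in only 1 group can pass this filter through that group, so the 36 are not a sample of all segments.

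Of these 36, edgeR's quasi-likelihood test called 3 higher in NFAT5 KO at an adjusted p below 0.05 (the share over all tested genes was 3.38%) and none lower (5.63% over all). The 3 were the P14 V segments Trav14-1 and Trbv13-3, and Trac, the constant region of the alpha chain. Without adjustment 4 members had a p below 0.05, the same 3 and Trav14d-2, all with a positive fold change, and DESeq2 also called 3 higher and none lower. The median log2 fold change of the 36 was -0.02, against 0.02 over all tested genes. CPM ranges of the groups did not overlap for 5 of the 36, all higher in NFAT5 KO (of all tested genes, 3.92% were higher and 6.41% lower without overlap). Whether the libraries came from separate mice is not in the labels, so a p-value measures only library-to-library spread, which may be technical. In bulk RNA, more cells of a type and more message per cell cannot be told apart, here and in all that follows.

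**Figure D1:**
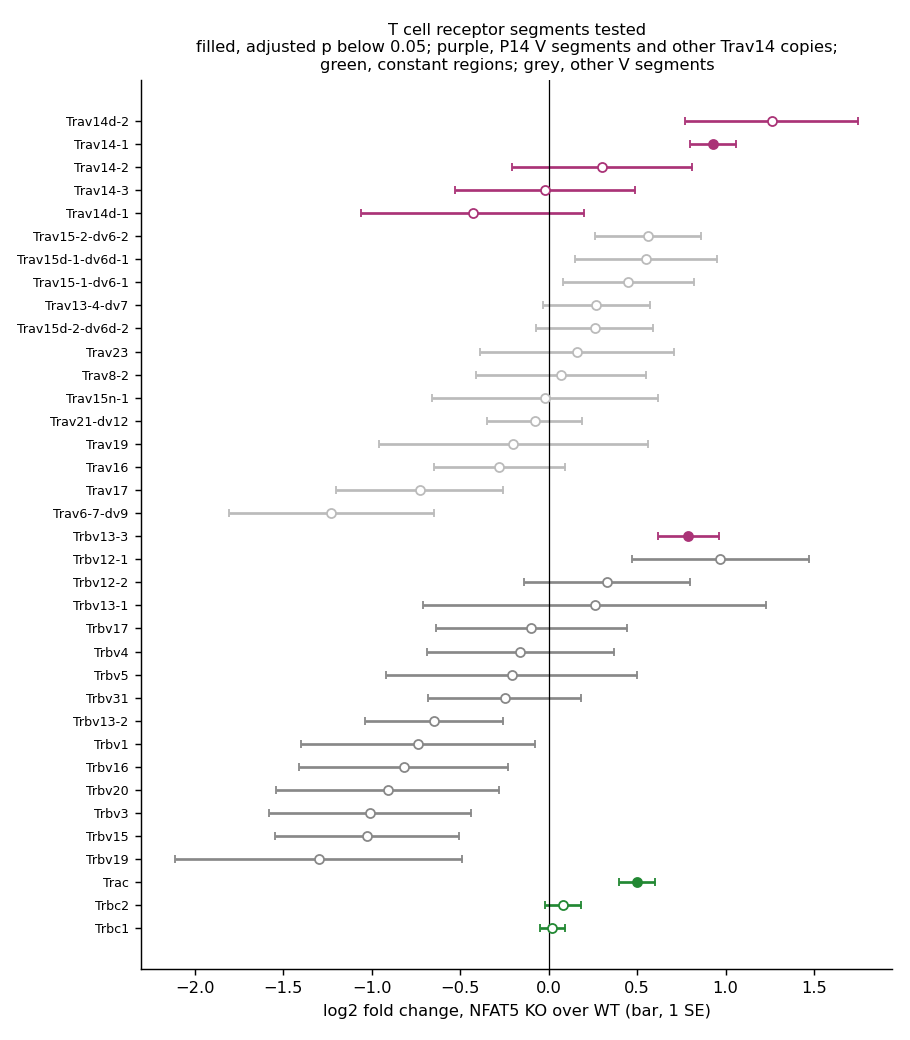
Log2 fold change (NFAT5 KO over WT, x axis) with 1 SE for each of the 36 tested segments (y axis), n = 5 libraries per group. Filled points passed an adjusted p below 0.05: Trav14-1 (0.93), Trbv13-3 (0.79) and Trac (0.50); the other V segments, in grey, lie on both sides of 0.

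Trav14-1 (ENSMUSG00000076840, GRCm38 chromosome 14, 53554022 to 53554558, plus strand) encodes the variable part of an alpha chain. Its level was 206, 283, 219, 202 and 228 CPM in the WT group (678_2, then 678_4, then 679_3, 679_4 and last 679_5). In the NFAT5 KO group (678_3, then 678_5, then 678_6, 679_2 and last 679_6) it was 349, 466, 401, 550 and 405 CPM. Every NFAT5 KO library was above every WT library, and library 679_2 was the highest. The log2 fold change was 0.93 (SE 0.13), a 1.91-fold rise (edgeR quasi-likelihood test, adjusted p = 0.000968). With the label prefix (678 or 679, whose meaning the labels do not give) as a block it was 0.94 (SE 0.14, edgeR adjusted p = 0.00215).

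The other Trav14 copies were low. Trav14-1 held 99.0% of all reads given to the family, and Trav14n-3 had none. Trav14-3, Trav14d-1, Trav14-2 and Trav14d-2 were tested and none was called. Their levels were all at or below 2.14 CPM in every library. Trav14d-2 went from 0.234 to 0.438 CPM in WT to 0.611 to 1.23 CPM in NFAT5 KO, ranges that do not overlap, with a log2 fold change of 1.26 (SE 0.49, edgeR adjusted p = 0.138). Only 167 reads in all were given to Trav14d-2, and 45 of the 31-base words of Trav14-1 occur in it too. Trav14d-1 had a log2 fold change of -0.43 (SE 0.63), Trav14-2 one of 0.30 (SE 0.51) and Trav14-3 one of -0.02 (SE 0.51). The copies Trav14d-3-dv8, Trav14n-1 and Trav14n-2 did not pass the filter on low counts, with 48.0, 10.5 and 11.9 reads in all libraries together.

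Trbv13-3 (ENSMUSG00000076470, chromosome 6, 41130147 to 41130585, plus strand) encodes the variable part of the P14 beta chain. It was at 103, 119, 130, 138 and 104 CPM in the WT libraries, in the order given above. In the NFAT5 KO libraries it was at 163, 170, 193, 312 and 187 CPM. The groups did not overlap, and library 679_2 lay far above the other 4 of its group. The log2 fold change was 0.79 (SE 0.17), a 1.73-fold rise (edgeR adjusted p = 0.0117), and without library 679_2 it was 0.57 (SE 0.11, edgeR adjusted p = 0.011). Its relatives Trbv13-2 and Trbv13-1 were not called. Trbv13-2 was at 1.24 to 2.53 CPM in WT and 1.04 to 1.58 CPM in NFAT5 KO (log2 fold change -0.65, SE 0.39, edgeR adjusted p = 0.345). Trbv13-1 was at 0.0637 to 0.901 and 0.0448 to 1.94 CPM (0.26, SE 0.97, edgeR adjusted p = 0.908), and its sign depends on single libraries.

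Trac (ENSMUSG00000076928, chromosome 14, 54220521 to 54224206) was at 955, 1121, 983, 1099 and 1108 CPM in the WT libraries. In the NFAT5 KO libraries it was at 1285, 1665, 1334, 1807 and 1349 CPM. Again no NFAT5 KO library fell as low as the highest WT library, and 679_2 and 678_5 were the highest. The log2 fold change was 0.50 (SE 0.10), a 1.41-fold rise (edgeR adjusted p = 0.00936). Trac has 2 annotated transcripts, and their proportions were alike in the groups: the one of 935 bases took 79.9% ± 1.6 (SD, n = 5) of Trac reads in WT and 78.6% ± 1.8 (SD, n = 5) in NFAT5 KO.

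The beta chain has 2 constant regions, and neither was called. Trbc1 (ENSMUSG00000076490, chromosome 6, 41538218 to 41539881) was at 488 to 610 CPM in WT and 512 to 564 CPM in NFAT5 KO, with a log2 fold change of 0.02 (SE 0.07, edgeR adjusted p = 0.92). Trbc2 (ENSMUSG00000076498, chromosome 6, 41546730 to 41548352) was at 1245 to 1649 CPM in WT and 1237 to 1800 CPM in NFAT5 KO, with a log2 fold change of 0.08 (SE 0.10, edgeR adjusted p = 0.684). The ranges of both genes overlapped between the groups. With library size alone as the scaling the fold change of Trbc1 was -0.03, so no direction can be given for it.

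**Figure D2:**
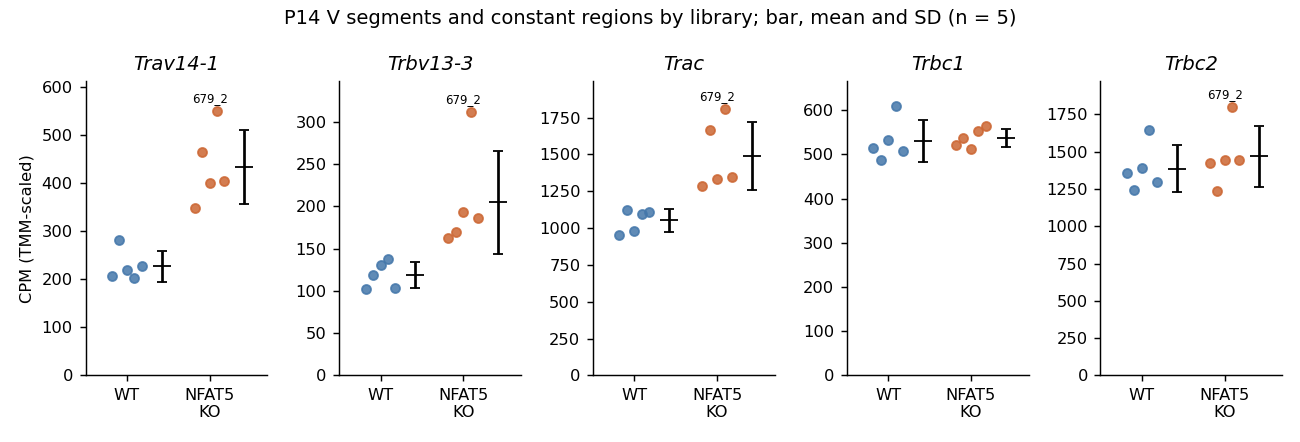
TMM-scaled CPM (y axis, from 0) of Trav14-1, Trbv13-3, Trac, Trbc1 and Trbc2 in each WT and NFAT5 KO library (points), with the mean and SD (n = 5). For the first 3 genes every NFAT5 KO point lies above every WT point, and for Trbc1 and Trbc2 the groups overlap; library 679_2 is marked where it is the highest.

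Levels of different genes can be compared only per length, on the TPM scale. In WT libraries Trav14-1 was at 1140 ± 182 TPM and Trbv13-3 at 862.9 ± 113 TPM (SD, n = 5), while Trac was at 2518 ± 218 TPM and the 2 Trbc genes together at 4127 ± 365 TPM. In NFAT5 KO libraries these levels were 2202 ± 483, 1511 ± 483, 3685 ± 736 and 4382 ± 555 TPM (SD, n = 5). The V segments thus lay below the constant region of their own chain in both groups. The annotated V transcripts end where the V segment ends, so reads across the join to J match no listed transcript over their whole length, and V and C levels are not on an equal footing.

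The ratio of 2 segments within a library does not depend on how libraries are scaled. Tests of 4 such ratios were added after the levels had been seen. The log2 ratio of Trac to Trbc counts was -0.97, -0.63, -0.97, -1.04 and -0.70 in the WT libraries and -0.60, -0.09, -0.56, -0.38 and -0.57 in the NFAT5 KO libraries. Its mean went from -0.86 ± 0.18 to -0.44 ± 0.21 (SD, n = 5 each), with no overlap (exact two-sided permutation test, p = 0.00794, the smallest this design allows; adjusted over the 4 ratios, 0.0106). Trac therefore rose relative to the beta constant regions.

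Both V segments also rose relative to the constant region of their chain. The log2 ratio of Trav14-1 to Trac was -2.22 ± 0.17 in WT and -1.78 ± 0.07 in NFAT5 KO, and that of Trbv13-3 to Trbc was -4.02 ± 0.14 and -3.33 ± 0.25 (SD, n = 5 each). Neither overlapped between the groups (exact two-sided permutation tests, each p = 0.00794, adjusted 0.0106). For the ratio of the 2 P14 V segments to each other no difference passed the test: Trav14-1 to Trbv13-3 was 0.94 ± 0.28 in WT and 1.11 ± 0.23 in NFAT5 KO on the log2 scale (SD, n = 5 each; exact two-sided permutation test, p = 0.333, adjusted 0.333), and the groups overlapped.

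**Figure D3:**
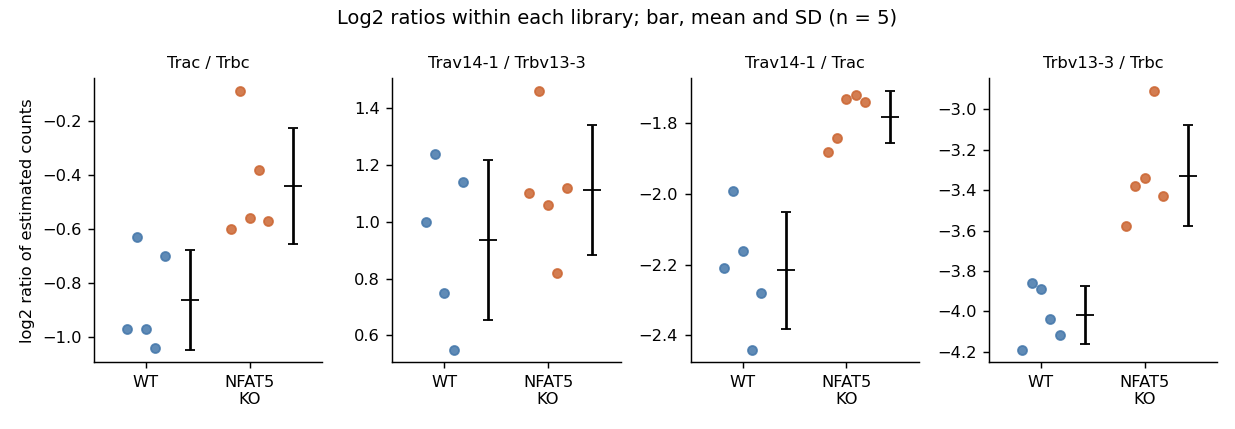
Log2 ratio of estimated counts within each library (y axis; the axes differ) for 4 pairs of segments, with the mean and SD (n = 5). The NFAT5 KO points lie above the WT points for Trac to Trbc, Trav14-1 to Trac and Trbv13-3 to Trbc, and overlap them for Trav14-1 to Trbv13-3.

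Shares of V reads give how far the V reads of a library fall on the segments that the P14 receptor uses. The Trav14 family took 85.13%, 89.49%, 86.45%, 84.99% and 88.24% of all Trav reads in the WT libraries. In the NFAT5 KO libraries it took 91.68%, 91.41%, 91.87%, 95.32% and 93.36%. The means were 86.86% ± 1.96 and 92.73% ± 1.63 (SD, n = 5 each), a difference of 5.87 percentage points with no overlap (exact two-sided permutation test, p = 0.00794, adjusted over the 3 shares 0.0119). These shares rest on 5960 to 16958 Trav reads per library, and the widest 95% Wilson interval spans 1.65 points.

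Trbv13-3 took 86.47%, 87.86%, 88.42%, 87.38% and 87.33% of all Trbv reads in the WT libraries. In the NFAT5 KO libraries it took 93.32%, 91.66%, 94.58%, 96.41% and 94.40%. The means were 87.49% ± 0.72 and 94.07% ± 1.75 (SD, n = 5 each), a difference of 6.58 points (exact two-sided permutation test, p = 0.00794, adjusted 0.0119). Both V shares were lower in every WT library than in every NFAT5 KO library, and therefore within each label prefix too. The counts behind the Trbv shares were 2707 to 9446 reads, with a widest interval of 2.51 points; the intervals cover counting error only.

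Another share, Trbc1 of all Trbc reads, gives how the reads were divided between the 2 beta constant regions. It was 27.69% ± 0.47 in WT and 26.94% ± 2.49 in NFAT5 KO (SD, n = 5 each), and the difference did not pass the test (exact two-sided permutation test, p = 0.556, adjusted 0.556). The WT libraries lay between 27.01% and 28.16%, while the NFAT5 KO libraries reached from 23.47% (679_2) to 30.24% (678_5). These shares rest on 41185 to 68661 reads per library, and their 95% Wilson intervals are at most 0.87 points wide. The intervals do not cover the division of reads that match both genes, and 321 of the 717 Trbc1 words are also in Trbc2.

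**Figure D4:**
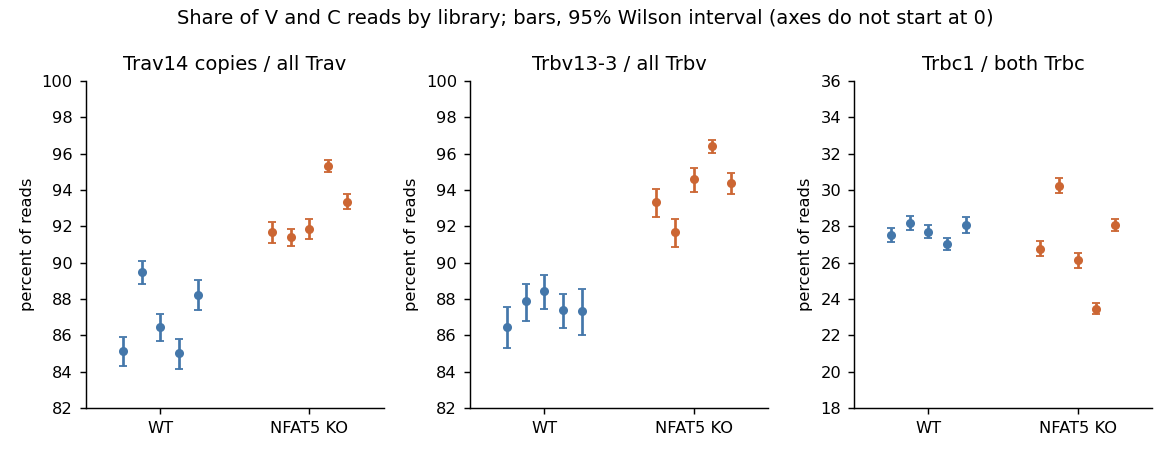
Percent of Trav reads given to Trav14 copies, of Trbv reads given to Trbv13-3 and of Trbc reads given to Trbc1 in each library (points), with 95% Wilson intervals; the axes do not start at 0. For both V shares all NFAT5 KO libraries lie above all WT libraries, from 91.41% and 91.66% upward, and for Trbc1 the groups overlap.

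The V reads outside these families and segments were few in both groups. Summed over the 106 other listed Trav genes they came to 34.41 ± 2.41 CPM in the WT and 33.63 ± 6.66 CPM in the NFAT5 KO libraries (SD, n = 5 each), with ranges of 30.7 to 36.64 and 27.16 to 43.99 CPM that overlap. Summed over the 34 other Trbv genes they came to 16.9 ± 1.83 and 12.17 ± 1.86 CPM, with ranges of 15.02 to 19.89 and 11.07 to 15.46 CPM. The beta sums overlapped only in NFAT5 KO library 678_5 and WT library 679_5. Against these, the Trav14 sum was 230.8 ± 32.5 CPM in the WT and 437.8 ± 76.7 CPM in the NFAT5 KO libraries.

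Of the 27 other V segments tested, 10 had a positive and 17 a negative fold change, and none was called by edgeR or had an unadjusted p below 0.05 (smallest adjusted p = 0.23). Their median log2 fold change was -0.16. The 14 other Trbv genes had a median of -0.45, with 11 of them negative, and the 13 other Trav genes a median of 0.07, with 6 negative. Of the 6 Trbv genes with the highest mean level outside the Trbv13 genes, Trbv15 was at 1.05 to 3.14 CPM in WT and 0.407 to 1.88 CPM in NFAT5 KO (log2 fold change -1.03, SE 0.52, edgeR adjusted p = 0.26). Trbv3 was at 1.2 to 2.71 and 0.171 to 1.32 CPM (-1.01, SE 0.57, edgeR adjusted p = 0.321). Trbv31, Trbv17 and Trbv12-2 had fold changes of -0.25, -0.10 and 0.33, each smaller than its SE of 0.43, 0.54 and 0.47. Trbv19 followed at 0.834 to 2.16 and 0 to 1.34 CPM (-1.30, SE 0.81, edgeR adjusted p = 0.371). Trbv12-1, named here after its values were seen, was the only other V segment whose ranges did not overlap (log2 fold change 0.97, SE 0.50, edgeR adjusted p = 0.27).

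No single other segment made up a large part of the V reads in any library. The most abundant other Trav gene held 0.63% to 3.15% of the Trav reads of its library, and the most abundant other Trbv gene 0.55% to 2.16% of the Trbv reads. The other Trav gene was the same in 9 of 10 libraries, Trav21-dv12, at 31.76 ± 7.22 TPM in WT and 30.46 ± 7.39 TPM in NFAT5 KO (SD, n = 5 each; log2 fold change -0.08, SE 0.27, edgeR adjusted p = 0.901). In NFAT5 KO library 678_5 it was Trav15-1-dv6-1. For the beta chain the leading other gene changed from library to library (Trbv15, Trbv3, Trbv13-2, Trbv20, Trbv12-2 or Trbv17). Each library had at least 1 read on 25 to 51 of the 106 other Trav genes and on 15 to 22 of the 34 other Trbv genes. For the alpha chain the NFAT5 KO libraries had reads on 25 to 37 of these genes and the WT libraries on 41 to 51, a difference that was not tested.

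The alpha segments with a mean of at least 1 CPM outside the Trav14 family were few. Of the 10 such genes, 6 carry "dv" in the symbol, which marks segments that can be joined in delta chains too; of all 106 other listed Trav genes, these 10 included, 9 carry it. Of the 10, 5 belong to the Trav15 family. The 10 genes held 80.4% of the other Trav reads and the Trav15 genes 39.6%. None of the 10 was called, and their fold changes lay on both sides of 0. The positive log2 fold changes were 0.56 (SE 0.30) for Trav15-2-dv6-2, 0.55 (SE 0.40) for Trav15d-1-dv6d-1 and 0.45 (SE 0.37) for Trav15-1-dv6-1. They were 0.27 (SE 0.30) for Trav13-4-dv7, 0.26 (SE 0.33) for Trav15d-2-dv6d-2 and 0.07 (SE 0.48) for Trav8-2. The negative ones were -0.73 (SE 0.47) for Trav17, -0.28 (SE 0.37) for Trav16, -0.08 (SE 0.27) for Trav21-dv12 and -0.02 (SE 0.64) for Trav15n-1. Of the 31-base words of these 5 Trav15 copies, 5.4% (Trav15n-1) to 67.7% (Trav15-1-dv6-1) occur in no other gene. The split of reads among them is therefore uncertain. Trav15n-2 is not listed, because its transcript is identical to that of Trav15d-2-dv6d-2, so reads of both would be counted under the latter. Trav8-2 is annotated as a pseudogene.

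Position along the locus went with level, as a description of the mean over the 10 libraries. Alpha V segments lie 242.8 to 1791.6 kb before Trac. In the 64 genes nearer Trac, 57 listed genes outside the Trav14 family summed to 26.1 CPM with a median of 0.0829 CPM, and 27 of them reached 0.1 CPM. In the 64 farther genes, 49 listed ones summed to 7.95 CPM with a median of 0.01 CPM, and 7 reached 0.1 CPM. Most farther genes, 56 of 64, are the D and N copies of the duplicated stretch, against 17 of 64 nearer genes, so position and shared sequence cannot be told apart. The annotated Trav14-1 gene lies 666.0 kb before Trac, in the nearer part. The P14 receptor is transgenic, so reads given to Trav14-1 need not come from the gene at that position.

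**Figure D5:**
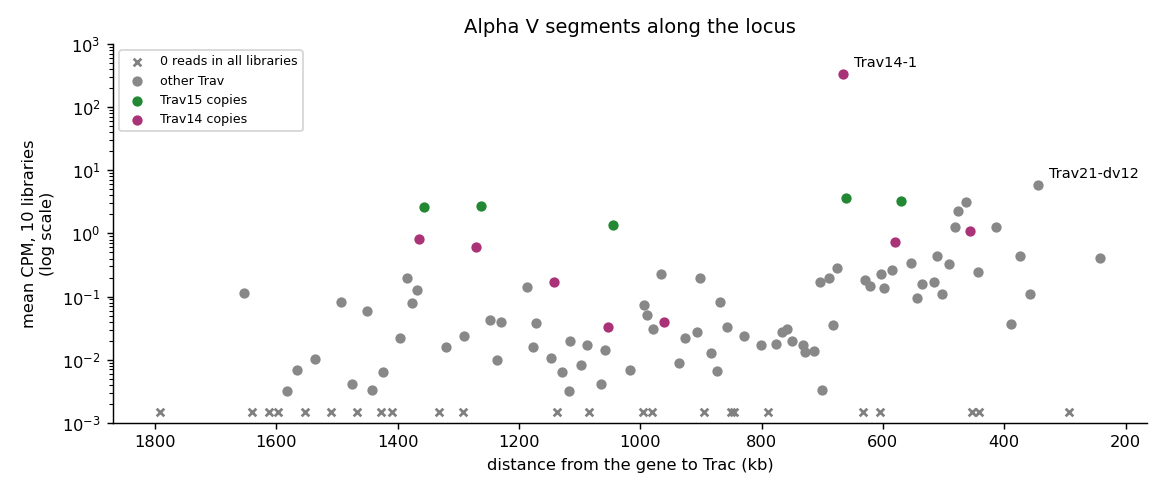
Mean CPM over 10 libraries (y axis, log scale) of each listed alpha V segment against its distance to Trac in kb (x axis, Trac to the right); crosses mark genes with 0 reads, drawn at the foot of the axis. Trav14-1 is alone above 100 CPM (mean 331 CPM) and the next is Trav21-dv12, gene 3 from the Trac side, at 5.83 CPM. Trav14-1 is drawn at its annotated position, although the P14 receptor is transgenic.

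Segments of the delta chain lie inside the alpha locus. Trdc, the delta constant region, lies between the Trav genes and Trac and is normally cut out when an alpha chain is assembled. It is not among the 242 genes. Trdc was at 297.1 to 330.8 CPM in WT and 371 to 440.5 CPM in NFAT5 KO, ranges that do not overlap, with a log2 fold change of 0.38 (SE 0.07, edgeR adjusted p = 0.0072). The delta V segments Trdv1, Trdv2-2, Trdv4 and Trdv5 had log2 fold changes of 0.07, 0.08, 1.03 and 0.15, and none was called (smallest edgeR adjusted p = 0.123). The gamma constant regions Tcrg-C1, Tcrg-C2 and Tcrg-C4 were at most 6.08 CPM in any library, and none of the 3 was called. Which cells the Trdc message came from was not tested.

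Of 10 genes for receptor assembly and signalling, 6 were tested and none was called higher or lower by edgeR, with a median log2 fold change of 0.13. The CD3 chains, which carry the receptor to the surface, had log2 fold changes of 0.12 (SE 0.08) for Cd3d, 0.13 (SE 0.06) for Cd3e, -0.15 (SE 0.07) for Cd3g and 0.02 (SE 0.07) for Cd247 (edgeR adjusted p = 0.371, 0.235, 0.219 and 0.913). The recombination genes were at or near 0. Dntt, which adds bases at the joins, was at 0 in every library, and Rag1 and Rag2, which cut the segments, were each at 0 in all libraries but 1 (0.0407 CPM).

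Some markers of other cells differed between the groups too. The 10 macrophage markers summed to 83.39 to 147.4 CPM in WT and 41.57 to 82.11 CPM in NFAT5 KO, ranges that do not overlap. Of 10 tested, 2 were called lower (Adgre1 and Fcer1g). The largest part of the WT sum was Lyz2 (mean 48.46 CPM in WT and 15.15 in NFAT5 KO). It was not called (edgeR adjusted p = 0.167), and its ranges overlapped. Itgam went the other way (mean 11.09 and 13.32 CPM), and Tyrobp changed little (log2 fold change -0.21, SE 0.30). None of the 10 markers was at 0 in every library. With the mean of these markers as a covariate, an alternative added after the data were seen, the log2 fold change was 0.54 (SE 0.20) for Trav14-1, 0.58 (SE 0.32) for Trbv13-3 and 0.17 (SE 0.16) for Trac (edgeR adjusted p = 0.606, 0.794 and 0.92), and none of the 3 calls was kept. That fit called 2 genes of 13081 in all, and the marker level and the genotype cannot be told apart where the ranges do not overlap. With the sum of the CD8 T cell markers as the library size the 3 genes were still called, at 0.89, 0.76 and 0.46. Of the 7 CD8 markers, 2 were called higher, Cd2 (0.46) and Cd5 (0.29).

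The 4 CD4 T cell markers summed to 5.967 to 17.02 CPM in WT and 23.85 to 41.53 CPM in NFAT5 KO. Of 2 tested, 1 was called higher (Cd40lg, log2 fold change 1.97, SE 0.30). Most of the sum was Cd40lg (mean 4.80 CPM in WT and 18.73 in NFAT5 KO) and Zbtb7b (6.86 and 11.96). Foxp3 went the other way (mean 0.68 and 0.20 CPM), and Cd4 itself was at 0 to 2.42 CPM. The 6 gamma delta T cell genes, most of whose level is Trdc, summed to 305.1 to 338.4 and 379 to 457.4 CPM. The 5 B cell markers summed to 278.7 to 654.4 and 231.6 to 293.9 CPM, nearly all of it Ighm, which was called lower (log2 fold change -0.70, SE 0.19). The NK cell and melanoma lists summed to at most 5.421 CPM in any library, and Ncr1 and Sox10 were at 0 in every library. With the mean of the melanoma markers as a covariate, also added after the data were seen, 3 members were still called higher, with log2 fold changes of 0.87 for Trav14-1, 0.73 for Trbv13-3 and 0.45 for Trac. The part of the CD4, gamma delta, B and NK cell markers in the segment results was not tested.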

How the data were processed

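RNA from sorted tumour CD8 T cells was measured in 10 libraries, 5 labelled WT and 5 NFAT5 KO. The authors deposited 1 quantification table per library, and per the file headers it gives each of 140919 transcripts an estimated count of reads and a TPM value (scaled by effective length and library total). The submitters' processing notes name Salmon 0.14.1, with GRCm38.p6 and mm10 as builds; Salmon's index word length and annotation are not given in sources used here. Transcripts were mapped to genes with GENCODE M21 (140045 matched, 99.38%; unmatched transcripts held 0.191% to 0.228% of counts), and estimated counts were added up by gene, then rounded. Depth was 22444310 to 32001285 counts.

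Genes were filtered with filterByExpr and tested with edgeR 4.0.16 (TMM scaling, robust quasi-likelihood fit, Benjamini-Hochberg over 13081 genes, threshold 0.05; SE is the absolute log2 fold change over the root of F) in R 4.3.3. The test was checked on simulated data with changes larger than those of the called members, so the check does not cover changes of their size. Shares and ratios used 1 value per library and exact permutation tests (SciPy 1.17.1). The sequences were read from the GENCODE M21 reference transcripts, and their positions were taken from the annotation of the same release. Genes named are the Trav14 copies, the Trbv13 genes, the constant regions and every called member. The 6 other Trav and 6 other Trbv genes with the highest mean are named too, and no J segment had reads. The remaining other Trav genes with a mean of at least 1 CPM are given as well. The members and lists were chosen with earlier results of these data known. Alternatives were DESeq2 1.42.0 and its size factors, library size alone, other filters, TPM in place of counts, the label prefix as a block, each library left out, and, added after the data were seen, scaling by CD8 markers, macrophage or melanoma markers as covariates, and the 4 ratios.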

Additional observations from a re-analysis of the deposited data

Results flagged for a closer look

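In 65 groups of 5 libraries (members and shares, by genotype), 8 held a library far from the other 4, with a gap to its nearest neighbour of more than 0.71 of the group's range; chance alone flags about 1 group in 20. Trbv13-3 in NFAT5 KO library 679_2, at 312 CPM, was the one among abundant genes. Library 679_2 was also the highest NFAT5 KO library for Trav14-1 and Trac, and Trbv13-3 remained called without it, as given above. The other 7 concern genes at low levels, under 6 CPM in every library: Trav14d-1 at 2.14 CPM in WT 678_2, Trav14d-3-dv8 at 0.613 CPM in WT 678_4, Trbv19 at 2.16 CPM in WT 679_4, Trav14n-1 at 0.324 CPM in NFAT5 KO 679_6, and, all in NFAT5 KO 678_5, Trav14n-2 at 0.183 CPM, Trbv13-1 at 1.94 CPM and Trav15d-1-dv6d-1 at 5.9 CPM. Reads were given to Trav14n-1 in NFAT5 KO 679_6 only, where Trav14d-1 was at 0.194 CPM. These 2 copies each have an unlisted transcript identical to a listed one of the other, so the split of reads between them is uncertain.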

How the results depend on the processing

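Of 558 recomputed values over 32 results, 525 kept their direction and their side of the threshold. The counts of 3 members called higher and 0 called lower were the same in every alternative except the macrophage covariate, where 0 were called higher; Trav14-1 (0.54), Trbv13-3 (0.58) and Trac (0.17) then missed the threshold, and the cause was not tested. With each library left out, Trav14-1 ranged from 0.814 to 1.001, Trbv13-3 from 0.567 to 0.837 and Trac from 0.401 to 0.524, all still called (largest edgeR adjusted p = 0.0439). The values that changed sign were of results that pass no test. The cause was not tested for these: leaving out a library gave ranges of -0.703 to 0.123 for Trav14d-1, -0.179 to 0.202 for Trav14-3, -1.254 to 0.672 for Trbv13-1, -0.031 to 0.064 for Trbc1, -0.017 to 0.144 for Trbc2, -0.226 to 0.025 for Trav21-dv12, -0.356 to 0.217 for Trbv17 and -1.578 to 0.114 points for the Trbc1 share. The label prefix as a block gave 0.024 for Trav14-3 and -0.336 for Trbv13-1. Library size alone gave -0.025 and CD8 marker scaling -0.018 for Trbc1. The macrophage covariate gave 0.754 for Trav14-3, -1.759 for Trbv13-1, -0.465 for Trav15-1-dv6-1, -0.413 for Trav15d-1-dv6d-1 and 0.578 for Trbv17, and the melanoma covariate 0.290 for Trbv17. Over all genes, DESeq2's Wald test called 1893 and edgeR 1179, and edgeR called 696 without WT 678_2. No paired analysis was possible because the labels give no replicate number shared between the groups. Most other V segments hold few reads per library, which limits what a test of them can detect. Of the 36 members tested, 31 overlapped between the groups and 5 did not, all higher in NFAT5 KO. Over all tested genes, 3.92% were higher and 6.41% lower without overlap.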
